A study of Mus musculus with 6 samples.

Results

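The tryptophan-kynurenine pathway of the liver was followed through 10 genes: Tdo2, Ido2, Afmid, Kyat1, Kyat3, Aadat, Kmo, Kynu, Haao and Qprt. They were taken by name from the 22180 genes that carry a probe set with 1 gene symbol on the array, and each of the 10 has 1 such probe set. Kyat3 drew attention to the pathway because its measured difference between the mouse groups was among those of smallest p, and the other 9 were added for their place in the pathway. The differences of the members between the groups are therefore given as a description and not as a test.

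Total RNA from whole liver of 6 male mice was hybridised, 1 array a mouse, to Affymetrix whole-transcript arrays. The groups were Balb/c, which the series calls WT, and the substrain Balb/cBy, which it calls KD, with 3 arrays each. All mice ate a high-fat diet (58% of energy from fat) that began at 8 weeks of age and lasted 12 weeks. They were 20 weeks old at sampling, and no group on another diet enters the comparison. What KD stands for is not tied to a gene in the labels, which give no other allele or agent. As background, mice of the By substrain lack part of Acads, the gene of short-chain acyl-CoA dehydrogenase, through a spontaneous deletion. Arrays of a group are biological replicates per the labels.

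In the liver most tryptophan that is not used for protein is broken down through kynurenine. Tryptophan 2,3-dioxygenase, encoded by Tdo2, opens the indole ring in hepatocytes. The related indoleamine dioxygenases, of which Ido2 is the one made in mouse liver, catalyse the same step, and the formamidase Afmid then releases kynurenine. From there kynurenine is hydroxylated by Kmo and cleaved by Kynu on the way to 3-hydroxyanthranilic acid, which Haao and Qprt carry on towards NAD. Alternatively a kynurenine aminotransferase closes it to kynurenic acid. Kyat1, Kyat3 and Aadat encode such aminotransferases, which use vitamin B6 as cofactor and also accept other amino acids.

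The members did not share one direction. The 5 members that take kynurenine itself as substrate (Kyat3, Kmo, Kyat1, Aadat and Kynu) had higher means in Balb/cBy, with differences from 0.17 to 1.01 on the log2 scale. Without Balb/c replicate 2 the differences of Aadat and Kynu were each -0.01. Got2, which can also act on kynurenine but is not a member, differed by -0.04. Both dioxygenases among the members, Tdo2 and Ido2, had lower means, by -0.37 and -0.31. Afmid, Haao and Qprt lay within 0.1 of 0. This grouping by step was made after the values were seen. Kyat3 alone showed groups that did not overlap: its measured level, from 1 probe set, was 2.02 times as high in Balb/cBy as in Balb/c.

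The sequences before the annotated starts of 3 members are shown, since Kyat3 and its paralogue Kyat1 encode the same activity with unlike differences between the substrains and Tdo2 encodes the first step, found largely in liver. Each is the 250 bases before the start in RefSeq's annotation of GRCm38.p6, read 5′ to 3′ on the strand of the gene. This reference was not read from the mice measured here, so its letters cannot show a difference between the substrains. Capitals mark matches, on either strand, to the CCAAT box (CCAAT), the TATA box (TATAAA) and the core bound by the aryl hydrocarbon receptor (GCGTG), a receptor for which kynurenine and kynurenic acid are ligands.
Kyat3, chr3:142700798-142701047, plus strand: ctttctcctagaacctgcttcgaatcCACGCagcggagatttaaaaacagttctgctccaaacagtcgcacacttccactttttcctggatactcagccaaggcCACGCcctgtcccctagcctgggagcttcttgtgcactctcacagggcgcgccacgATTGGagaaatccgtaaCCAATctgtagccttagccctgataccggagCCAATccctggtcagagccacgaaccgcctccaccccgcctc
Kyat1, chr2:30205848-30206097, minus strand: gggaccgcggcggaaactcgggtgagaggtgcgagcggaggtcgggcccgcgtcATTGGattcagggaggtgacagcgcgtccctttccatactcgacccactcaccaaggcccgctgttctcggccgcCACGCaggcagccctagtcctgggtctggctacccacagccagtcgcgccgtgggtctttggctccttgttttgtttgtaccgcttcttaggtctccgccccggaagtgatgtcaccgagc
Tdo2, chr3:81975729-81975978, minus strand: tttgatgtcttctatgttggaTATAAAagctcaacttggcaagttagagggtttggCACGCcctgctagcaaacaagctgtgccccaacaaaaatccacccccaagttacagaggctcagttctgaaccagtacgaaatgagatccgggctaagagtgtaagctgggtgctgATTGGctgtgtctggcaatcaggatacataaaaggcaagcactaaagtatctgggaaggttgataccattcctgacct

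The Kyat3 window held 3 CCAAT boxes, at 90 to 86, 73 to 69 and 42 to 38 bases before the start, the first of them on the opposite strand. At least 3 such matches occurred in 2.79% of the 32851 promoter windows of the same length, and at least 1 in 33.8%. It also held 2 receptor cores, a match found at least once in 28.2% of windows. The Kyat1 window held 1 CCAAT box and 1 receptor core and was richer in G and C, at 64.4% against 56.0% for Kyat3. Tdo2 was the member whose window held a TATAAA match, at 229 to 224 bases before the start, as did 12.4% of all windows; its G and C content was 46.4%, against a median of 52.4%. No matches overlapped one another. Of the 8 members with a window in the table, CCAAT was present in 3 and the receptor core in 4. These matches describe letters in the window and no binding was measured here.

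Signal was high for all members. Each of the 10 exceeded, on every array, a log2 value of 8.02, the 95th percentile of the mean levels of 1105 olfactory receptor genes, which served as a stand-in for background because the deposited table has no detection call. Values ran from 9.63 to 12.9. The hepatocyte markers fixed for this work, among them Alb and Cps1, were all above that level, and their mean ran from 13.07 to 13.19 in Balb/c and from 13.14 to 13.24 in Balb/cBy. Across the whole table Pearson correlations between arrays lay between 0.977 and 0.991, and limma's array weights were lowest for Balb/cBy replicate 1 (0.471) and Balb/c replicate 3 (0.635). Exocrine pancreas markers stood higher on Balb/c replicate 3, with a mean over 5 measured genes of 8.75, than on the other 5 arrays, where it ran from 7.81 to 7.93. Because bulk tissue was measured, fewer cells of a type and less RNA per cell cannot be told apart.

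**Figure D1:**
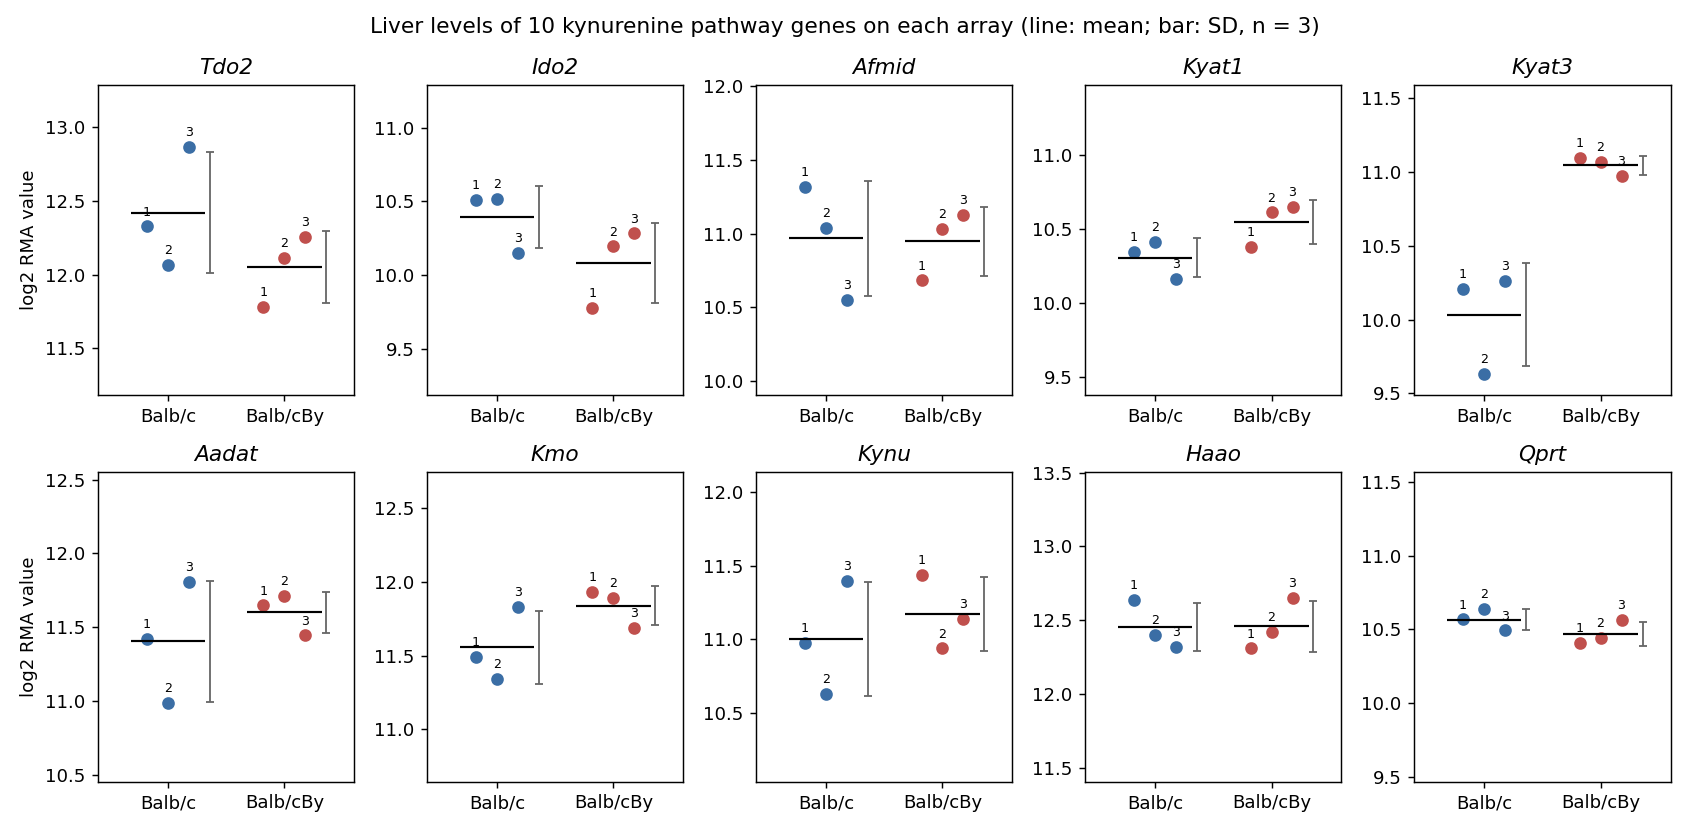
Log2 RMA value (y axis, same span in each panel) of each pathway gene on each array, by substrain (x axis), with the replicate number above each point, the group mean as a line and the SD (n = 3) as a bar. Kyat3 is the panel in which the groups part, with Balb/c from 9.63 to 10.26 and Balb/cBy from 10.97 to 11.09.

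Tdo2, the main hepatic dioxygenase, read 12.33, 12.06 and 12.87 in Balb/c replicates 1 to 3, against 11.78, 12.11 and 12.26 in Balb/cBy replicates 1 to 3, the order kept throughout. The groups overlapped, with Balb/c replicate 3 the highest array and Balb/cBy replicate 1 the lowest. The means were 12.42 ± 0.41 (SD, n = 3) and 12.05 ± 0.24 (SD, n = 3), a difference of -0.37 ± 0.21 (SE, 95% interval -0.85 to 0.11). The difference was -0.14 without Balb/c replicate 3 and -0.54 without Balb/c replicate 2, so its size hung on single arrays. Without both arrays of lowest weight it was -0.01.

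Ido2 read 10.51, 10.52 and 10.15 in Balb/c, against 9.78, 10.19 and 10.28 in Balb/cBy. Balb/c replicate 3, the highest array for Tdo2, was the lowest Balb/c array for Ido2, and 2 of the Balb/cBy arrays lay above it. The means were 10.39 ± 0.21 (SD, n = 3) and 10.08 ± 0.27 (SD, n = 3), a difference of -0.31 ± 0.16 (SE, 95% interval -0.68 to 0.06). Leaving out Balb/cBy replicate 1 gave -0.15, and leaving out Balb/c replicate 3 gave -0.43. Ido1, the dioxygenase induced by interferon gamma, is not a member. It read from 8.25 to 8.30 in Balb/c and from 8.17 to 8.53 in Balb/cBy, near the olfactory receptor level. The difference was 0.05 ± 0.11 (SE).

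Afmid, the formamidase that frees kynurenine, read 11.32, 11.04 and 10.55 in Balb/c, against 10.68, 11.03 and 11.12 in Balb/cBy. The Balb/cBy range lay inside that of Balb/c. The difference was -0.02 ± 0.20 (SE, 95% interval -0.48 to 0.44), an interval wide enough to hold a change of the size seen in Tdo2 in either direction. Its sign turned with the array left out, from -0.23 without Balb/c replicate 3 to 0.15 without Balb/c replicate 1.

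Kyat3, which encodes kynurenine aminotransferase III, an enzyme that also acts on cysteine conjugates, read 10.21, 9.63 and 10.26 in Balb/c, against 11.09, 11.07 and 10.97 in Balb/cBy. The lowest Balb/cBy array stood 0.71 above the highest Balb/c array. Within Balb/cBy the 3 arrays spanned 0.12, and within Balb/c they spanned 0.63, most of it from replicate 2. The means were 10.03 ± 0.35 (SD, n = 3) and 11.04 ± 0.06 (SD, n = 3), a difference of 1.01 ± 0.17 (SE, 95% interval 0.63 to 1.39). This difference was larger than 99.8% of those of all tested probe sets, in the contrast from which the gene was chosen. It ran from 0.81 without Balb/c replicate 2 to 1.12 without Balb/c replicate 3, and it was 1.10 without both arrays of lowest weight.

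Kyat1, kynurenine aminotransferase I and the paralogue of Kyat3, read 10.34, 10.41 and 10.16 in Balb/c, against 10.38, 10.61 and 10.65 in Balb/cBy. The groups overlapped through Balb/cBy replicate 1, which fell between the Balb/c arrays. The means were 10.31 ± 0.13 (SD, n = 3) and 10.55 ± 0.15 (SD, n = 3), a difference of 0.24 ± 0.11 (SE, 95% interval -0.02 to 0.50). The sign held whichever array was left out, with values from 0.17 to 0.33.

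Aadat, kynurenine aminotransferase II, which also transaminates 2-aminoadipate in lysine breakdown, read 11.42, 10.99 and 11.81 in Balb/c, against 11.65, 11.71 and 11.44 in Balb/cBy. The Balb/cBy arrays all lay inside the range of Balb/c. The means were 11.40 ± 0.41 (SD, n = 3) and 11.60 ± 0.14 (SD, n = 3), a difference of 0.20 ± 0.19 (SE, 95% interval -0.25 to 0.64). Without Balb/c replicate 2 it was -0.01 and without Balb/c replicate 3 it was 0.40.

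The difference of Kyat3 was also present relative to the other aminotransferases on the same array. With the Balb/c mean set to 0, the log2 level of Kyat3 relative to Aadat was 0.15, 0.02 and -0.17 in Balb/c, against 0.82, 0.72 and 0.90 in Balb/cBy. The groups were apart, with an SD of 0.164 in Balb/c and 0.0879 in Balb/cBy (n = 3 each). Relative to Kyat1 the values were 0.13, -0.51 and 0.37 in Balb/c and 0.99, 0.73 and 0.60 in Balb/cBy, again apart, with wider SDs of 0.456 and 0.199 (n = 3 each). Such ratios show unequal change and use the same Kyat3 values, so they add no separate evidence. Got2, the mitochondrial aspartate aminotransferase that can also act on kynurenine, differed by -0.04 ± 0.10 (SE).

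Kmo, the hydroxylase of the outer mitochondrial membrane, read 11.49, 11.34 and 11.83 in Balb/c, against 11.93, 11.89 and 11.69 in Balb/cBy. The groups overlapped through Balb/c replicate 3, which lay above Balb/cBy replicate 3. The means were 11.56 ± 0.25 (SD, n = 3) and 11.84 ± 0.13 (SD, n = 3), a difference of 0.28 ± 0.14 (SE, 95% interval -0.04 to 0.60). After Kyat3 this was the largest positive difference among the members, and it stayed positive whichever array was left out (0.18 to 0.42).

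Kynu, the kynureninase, read 10.97, 10.63 and 11.40 in Balb/c, against 11.44, 10.94 and 11.14 in Balb/cBy. The groups overlapped widely. The means were 11.00 ± 0.39 (SD, n = 3) and 11.17 ± 0.25 (SD, n = 3), a difference of 0.17 ± 0.20 (SE, 95% interval -0.30 to 0.64), which was -0.01 without Balb/c replicate 2. Macrophages can also make Kmo and Kynu. Of 10 Kupffer cell and macrophage markers 6 were higher in Balb/cBy (median difference 0.10), and their mean level was lowest on Balb/c replicate 3, at 9.48, against 9.77 to 10.28 on the other arrays. On that array Kmo and Kynu had their highest Balb/c values. The part of these cells in the result was not tested.

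Haao, the dioxygenase that opens 3-hydroxyanthranilic acid, read 12.64, 12.40 and 12.32 in Balb/c, against 12.31, 12.42 and 12.65 in Balb/cBy. The ranges of the groups nearly coincided. The difference was 0.01 ± 0.13 (SE, 95% interval -0.29 to 0.30). Qprt, which makes nicotinic acid mononucleotide from quinolinic acid, read 10.57, 10.64 and 10.49 in Balb/c, against 10.41, 10.44 and 10.56 in Balb/cBy. Its groups overlapped within a narrow range, with SDs of 0.07 and 0.08 (n = 3 each). The difference was -0.10 ± 0.09 (SE, 95% interval -0.31 to 0.12).

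**Figure D2:**
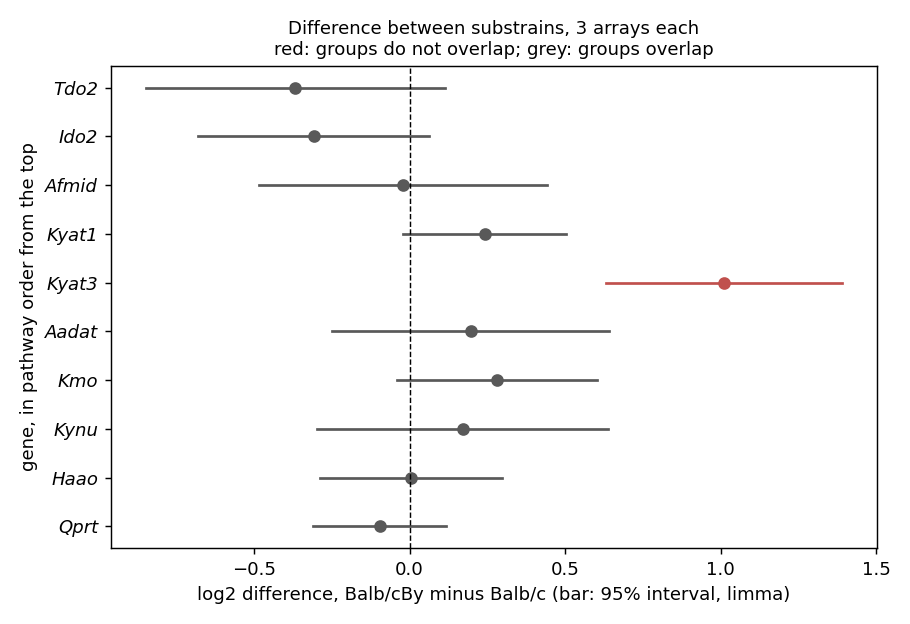
Difference in log2 level, Balb/cBy minus Balb/c (x axis), for each pathway gene in pathway order from the top (y axis), with limma's 95% interval over 3 arrays a group. Kyat3 lies at 1.01, and the differences of the other 9 genes run from -0.37 to 0.28. Their intervals all include 0 and reach from -0.85 (Tdo2) to 0.64 (Aadat and Kynu).

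Of the 10 members, 6 had a higher and 4 a lower mean in Balb/cBy, with a median difference of 0.09, against 49% higher and a median near 0 (-0.003) over all 23521 tested probe sets. Without Kyat3 the median of the other 9 was 0.006. The groups did not overlap in 1 member, Kyat3, which was higher; over all tested probe sets the groups lay apart in this direction in 4.42%, with Balb/cBy lower in 3.53% and in either direction in 7.95%. Since Kyat3 was chosen from this contrast, nothing is read from that count. No member passed an adjusted p of 0.05 (limma, Benjamini-Hochberg over all probe sets), where 0% of the probe sets passed; 621 probe sets (2.64%) were higher with an unadjusted p under 0.05, Kyat3 among them, and 278 (1.18%) were lower.

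The spread between mice of one group differed widely among the members. Their median within-group SD, pooled over both substrains, was 0.246, against 0.142 over all tested probe sets. Tdo2, Kynu, Afmid and Aadat were the most variable, with SDs larger than those of 92.5% or more of all probe sets, and the SD of Qprt was larger than that of 13.2%. The members are bright, whereas the median of all tested probe sets ran from 7.98 to 8.03 per array, near the olfactory receptor level of 8.02. RMA compresses differences of dim genes. No set of like brightness was compared, so these SDs do not set the pathway apart. Within Balb/c, 5 members (Kyat3, Aadat, Tdo2, Kmo and Kynu) were lowest on replicate 2, intermediate on replicate 1 and highest on replicate 3, an order found in 18.1% of all tested probe sets. The other 5 had their lowest Balb/c value on replicate 3. Kyat1, Ido2 and Qprt were intermediate on replicate 1 and highest on replicate 2, an order found in 23.2% of all tested probe sets. Afmid and Haao were intermediate on replicate 2 and highest on replicate 1, as were 16.4%. In Balb/cBy, replicate 1 was the lowest array for Tdo2, Ido2, Afmid, Kyat1, Haao and Qprt, and it was the highest for Kyat3, Kmo and Kynu.

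Tdo2 is a known target of glucocorticoids. The 8 glucocorticoid-induced genes listed beside it had a mean level of 10.64, 10.48 and 10.04 in Balb/c, against 10.15, 10.65 and 10.82 in Balb/cBy. The list was thus lowest on Balb/c replicate 3, where Tdo2 was highest. The part of glucocorticoids in the Tdo2 values was not tested. In the list, 6 of the 8 genes were higher in Balb/cBy (median 0.23). Those of smallest p were Fkbp5, a co-chaperone of the receptor, at 0.35 ± 0.20 (SE), the transcription factor Zbtb16 at 0.40 ± 0.27 (SE), the kinase Sgk1 at 0.24 ± 0.19 (SE) and the clock gene Per1 at 0.33 ± 0.33 (SE). None passed.

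Among 13 measured genes that enter or leave the pathway at other points, 6 were higher and 7 lower (median -0.003), and 0 passed. Acmsd, the decarboxylase that diverts the pathway's intermediate away from NAD, read 8.37, 8.09 and 8.51 in Balb/c, against 9.14, 8.42 and 9.05 in Balb/cBy. The Balb/c arrays and Balb/cBy replicate 2 lay near the olfactory receptor level of 8.02. Balb/cBy replicate 2 fell inside the Balb/c range, and the difference was 0.54 ± 0.20 (SE). Wars, the tryptophanyl-tRNA synthetase, differed by 0.28 ± 0.12 (SE), and its groups barely parted, the highest Balb/c array reading 9.08 and the lowest Balb/cBy array 9.09. Inmt, a methyltransferase of indole amines, differed by -0.43 ± 0.19 (SE) and Maob, a monoamine oxidase, by -0.26 ± 0.16 (SE), both with overlapping groups.

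Of 10 genes of NAD synthesis and nicotinamide use, 7 were higher and 3 lower, with a median of 0.05 and 0 passing. Nnmt, which methylates nicotinamide, read 7.83, 8.24 and 7.56 in Balb/c, against 9.63, 7.91 and 8.67 in Balb/cBy. Its Balb/c mean of 7.88 lay below the olfactory receptor level. The Balb/cBy arrays were spread widely, with replicate 1 high and replicate 2 inside the Balb/c range, and the difference was 0.86 ± 0.38 (SE). Nadk2, the mitochondrial NAD kinase, differed by -0.39 ± 0.19 (SE), Nmrk1, a nicotinamide riboside kinase, by 0.47 ± 0.34 (SE), and Nampt, the rate-limiting enzyme of the salvage route, by 0.25 ± 0.30 (SE).

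Transporters of tryptophan, kynurenine and other amino acids were mostly higher in Balb/cBy: 8 of 10 had higher means, with a median of 0.22, and 0 passed. In 3 of the 10 the groups lay apart with Balb/cBy higher, where 4.42% of all probe sets did. Slc7a5, the light chain of the exchanger that carries tryptophan and kynurenine, read 8.15, 8.43 and 8.06 in Balb/c and 8.61, 8.48 and 8.69 in Balb/cBy (0.38 ± 0.12 SE). Slc43a1, a carrier of large neutral amino acids, read 8.11, 8.34 and 8.18 in Balb/c and 8.53, 8.80 and 8.45 in Balb/cBy (0.38 ± 0.12 SE). The other of the 3 was Slc7a9, at 0.11 ± 0.09 (SE) and below the olfactory receptor level. Slc7a5 and Slc43a1 lay near that level in Balb/c, with a mean of 8.21 each. Slc3a1, the heavy chain that pairs with Slc7a9, differed by 0.60 ± 0.25 (SE) with overlapping groups, and Slc3a2, the heavy chain that pairs with Slc7a5, by 0.21 ± 0.12 (SE). On the log2 scale the list mean ran from 8.91 to 9.01 in Balb/c and from 9.15 to 9.25 in Balb/cBy.

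Of 9 genes of the aryl hydrocarbon receptor and the kynurenic acid receptor Gpr35, 5 were higher and 4 lower (median 0.11), 0 passed, and 4 lay below the olfactory receptor level. Cyp1a2, a hepatocyte cytochrome P450 induced through the receptor, differed by 0.21 ± 0.12 (SE), its relative Cyp1a1 by 0.12 ± 0.11 (SE), the receptor's partner Arnt by 0.21 ± 0.11 (SE) and Nqo1, a quinone reductase, by -0.18 ± 0.15 (SE). Arnt was the 1 gene of the list whose groups did not overlap, where 7.95% of all probe sets did not.

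Of 9 other aminotransferases, 7 were higher with a median of 0.06, led by Gpt2 (0.17 ± 0.14 SE) and Got1 (0.33 ± 0.28 SE), and Psat1 (0.11 ± 0.12 SE) and Agxt (0.17 ± 0.23 SE) followed. Of 5 lysine breakdown enzymes, which handle the other substrate of Aadat, 3 were higher with a median of 0.05: Aass, the first enzyme, differed by 0.17 ± 0.13 (SE), Aldh7a1 by 0.05 ± 0.10 (SE), Gcdh by -0.07 ± 0.12 (SE) and Dhtkd1 by -0.15 ± 0.16 (SE). Of 3 measured genes of vitamin B6 supply, Pdxk, the pyridoxal kinase, differed by 0.37 ± 0.20 (SE), Aox1 by -0.21 ± 0.21 (SE) and Pdxp by 0.02 ± 0.08 (SE). Of 8 interferon gamma induced genes, 7 were higher with a median of 0.04. Igtp differed by 0.51 ± 0.20, Irgm1 by 0.36 ± 0.16 and Psmb9 by 0.19 ± 0.23 (SE), and the chemokine Cxcl9 was lower at -1.25 ± 0.39 (SE). In these 4 lists 0 genes passed.

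**Figure D3:**
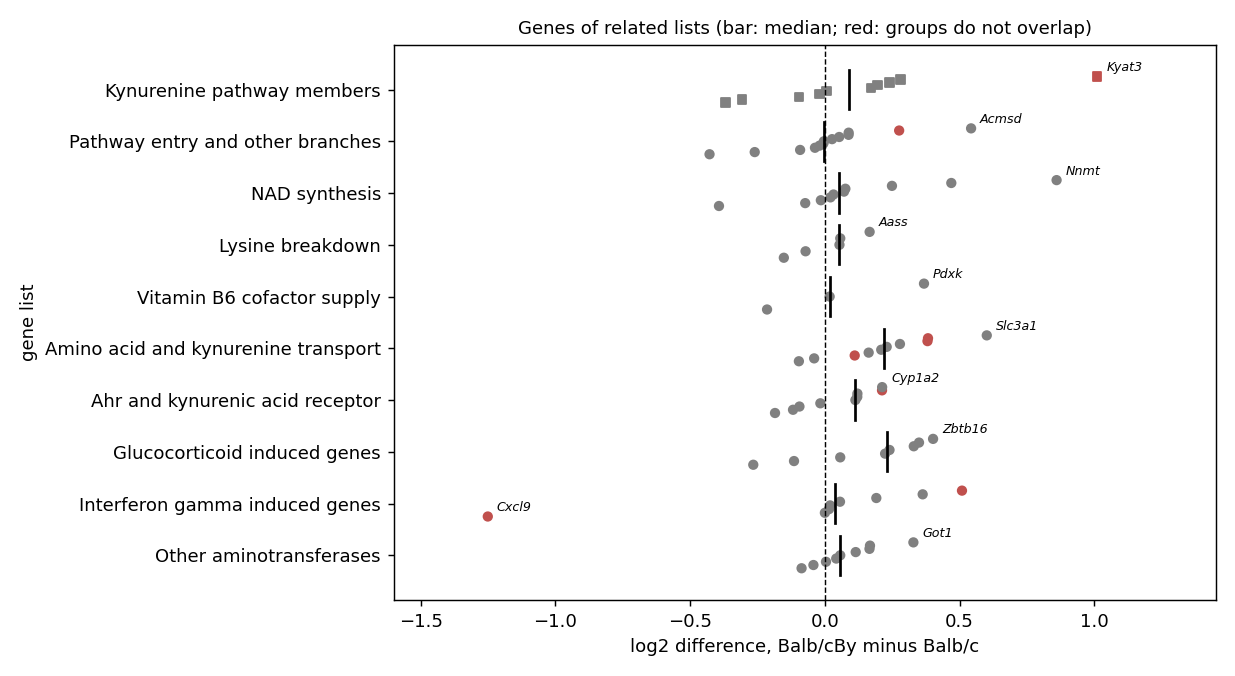
Difference in log2 level, Balb/cBy minus Balb/c (x axis), of each measured gene of the pathway (squares, top) and of 9 lists of related genes (circles), with the list median as a bar and red for genes whose groups do not overlap. Kyat3 at 1.01 lies to the right of all listed genes, and the transporter list has a median of 0.22.

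The 5 genes whose pattern over the 6 arrays lay nearest to that of Kyat3 were Glo1, Il1r1, Ubtd1, Ostc and Osmr. Likeness was measured as the root-mean-square distance between log2 values from which each gene's own mean had been taken, among 19394 other genes with predicted genes left out. The distances were 0.166 for Glo1, a glyoxalase, 0.167 for the interleukin 1 receptor Il1r1, 0.179 for Ubtd1, 0.201 for Ostc, a subunit of the oligosaccharyltransferase, and 0.214 for the oncostatin M receptor Osmr, against a median of 0.56. Glo1 read 11.02, 10.64 and 11.47 in Balb/c, against 11.81, 11.82 and 11.87 in Balb/cBy, with Balb/c replicate 2 lowest as in Kyat3. In all 5 the groups did not overlap, which follows from the choice by likeness. Among the members Kmo was nearest to Kyat3, at 0.387 (rank 291), followed by Aadat at 0.421 (rank 678), and Ido2 was the farthest at 0.744 (rank 19038).

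In the nearest tested genes around Kyat3 on its chromosome the groups overlapped. In the RefSeq gene order these are Gbp2b, an interferon-induced GTPase, on the one side, with 4 untested genes between, and Gtf2b, a general transcription factor, directly on the other. Gbp2b read 8.01, 8.27 and 8.13 in Balb/c, against 8.07, 7.98 and 7.99 in Balb/cBy, a difference of -0.12 ± 0.10 (SE). Gtf2b read 8.32, 8.21 and 8.29 in Balb/c, against 8.17, 8.93 and 8.44 in Balb/cBy, a difference of 0.24 ± 0.18 (SE) that came largely from Balb/cBy replicate 2. The next tested genes were Gbp3 and Pkn2, each with 1 further untested gene before it. Gbp3 differed by 0.02 ± 0.09 (SE) and Pkn2, a protein kinase, by -0.05 ± 0.19 (SE).

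**Figure D4:**
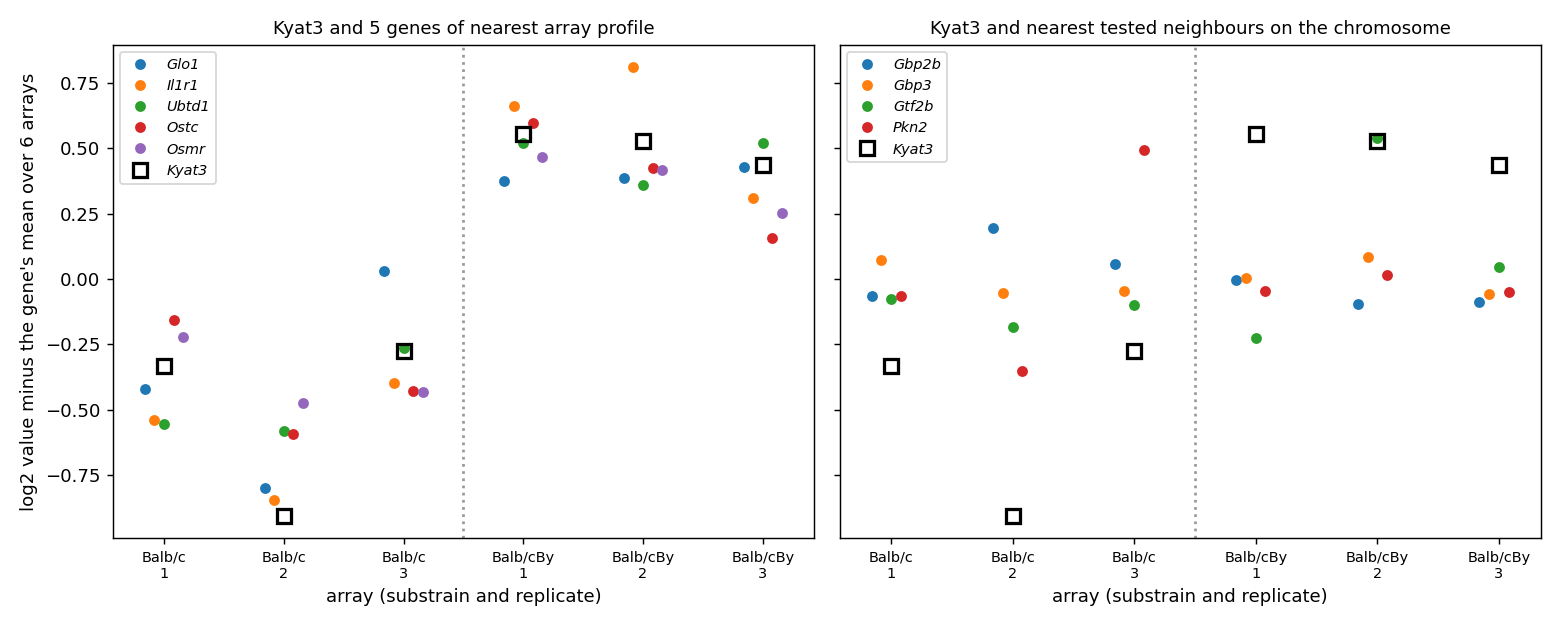
Log2 value minus the gene's own mean over the 6 arrays (y axis) on each array (x axis), for Kyat3 (open squares) with the 5 genes of nearest profile (left) and with the 2 nearest tested genes on each side of it on the chromosome (right). The left-hand genes separate the substrains as Kyat3 does, while the right-hand genes overlap between substrains, with differences from -0.12 to 0.24. Of the right-hand genes, Gbp3 lies below the olfactory receptor level and Gbp2b and Gtf2b lie near it.

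Markers of other liver cells were compared for the same arrays. Stellate cell markers were higher in 7 of 8 genes (median 0.13; list mean 9.20 to 9.52 in Balb/c and 9.39 to 9.69 in Balb/cBy). T and NK cell markers were lower in 7 of 7 (median -0.13; 7.54 to 7.68 and 7.39 to 7.52), 4 of them below the olfactory receptor level. Neutrophil markers were higher in 5 of 6 (median 0.21), 4 of them below that level. Of the other lists, dendritic cell markers were lower in 5 of 7 (median -0.05) and sinusoidal endothelial markers in 4 of 8 (-0.02). Cholangiocyte markers were lower in 4 of 5 (-0.07) and exocrine pancreas markers in 5 of 5 (-0.28). Below the olfactory receptor level lay 5 of the 7 dendritic cell genes, 4 of the 5 cholangiocyte genes and 2 of the 5 pancreas genes. The pancreas list mean was 8.75 on Balb/c replicate 3, 7.88 and 7.93 on the other Balb/c arrays, and 7.81 to 7.92 in Balb/cBy. The groups did not overlap, with Balb/cBy higher, in Dcn and Lum (2 of 8 stellate) and Retnlg and S100a8 (2 of 6 neutrophil). Retnlg and S100a8 both lay below the olfactory receptor level. Nkg7 (1 of 7 T and NK), Kdr (1 of 8 endothelial) and Ctrb1 (1 of 5 pancreas) lay apart as lower. In the hepatocyte, Kupffer cell, dendritic cell and cholangiocyte lists no gene lay apart. Over all probe sets 4.42% lay apart as higher and 3.53% as lower, and nothing is read from these few genes. None of these genes passed over all probe sets, and the part of these cells in the Kyat3 difference was not tested.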

How the data were processed

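The deposited table gives each probe set a log2 value on each array, made with RMA (background correction, quantile normalization and summary over probes) per the submitters' processing notes. Software version, genome build and probe positions are not given in the sources used here. Whether sequence differences between the substrains lie under the probes of Kyat3 or other genes was therefore not checked. RMA compresses differences of dim genes. Of 41345 probe sets, the 23521 with 1 gene symbol in the platform annotation were tested; 1814 with several symbols and 16010 unlisted were not named. The comparison used limma 3.58.1 under R 4.3.3 (group as single term, two-sided, Benjamini-Hochberg, threshold 0.05), which was also tested on simulated data. With 3 against 3 arrays an exact permutation test cannot go below 0.1, and the number of arrays limits the precision. SE and 95% intervals are limma's.

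The members and lists were chosen with earlier results of these data known. Named were the members, up to 4 genes of each pathway list with the smallest p, the tested neighbours of Kyat3 and the 5 nearest profiles; Ido1, Got2, Slc7a9, Gbp3, Pkn2, Gpr35 and the cell markers named singly were added after their values were seen. Gene order and promoters come from RefSeq for GRCm38.p6; 8 of 10 members had a promoter entry.

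The alternatives were a mean trend with robust moderation, array weights, renewed quantile normalization, median centring, the brighter probe sets alone, every probe set, averaged probe sets, a replicate block and each array left out. Leaving out both arrays of lowest weight was chosen after seeing the data. Same-numbered arrays did not deviate together from their group means (correlations -0.323, -0.193 and -0.232), so the numbers were not taken as pairs.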

Additional observations from a re-analysis of the deposited data

How the results depend on the processing

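Kyat3, Kyat1 and Kmo stayed higher, and Tdo2, Ido2 and Qprt lower, in Balb/cBy under all 15 alternatives, while Aadat, Kynu, Afmid and Haao changed sign under some. No member passed over all probe sets under any of the 15. The number of members higher in Balb/cBy was 6 and ran from 4 to 7 when single arrays were left out, with medians from -0.01 (without Balb/c replicate 2) to 0.16 (without Balb/c replicate 1); renewed quantile normalization gave 5 and a median of 0.03. With the replicate block the median was 0.09, 6 members were higher and 0 probe sets passed, as without it, so the block changed no call. Over all probe sets the count passing, 0 in limma with all arrays weighted alike, was 31 with array weights, 16 without both arrays of lowest weight, and from 0 to 4 when single arrays were left out (4 without Balb/cBy replicate 1, 2 without Balb/c replicate 3); the cause was not tested. Median centring, mean trend with robust moderation, the brighter probe sets and every probe set called 0. Neither background correction nor slide could be varied, since the table holds summarized values.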
